A study of Mus musculus with 6 samples.

Results

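Transcripts of 10 polyamine genes were followed in human neuroblastoma xenografts of mice that received BL-8040, which blocks CXCR4, a chemokine receptor. The genes were chosen by name as enzymes and regulators of the pathway: ODC1, AMD1, SRM and SMS for synthesis, OAZ1, OAZ2 and AZIN1 for control of ornithine decarboxylase, and SAT1, SMOX and PAOX for breakdown. All 10 were measured, each by 1 probe set (a group of array probes for 1 transcript), among 18417 named genes. The tumours grew from SK-N-BE(2), a long-established MYCN-amplified line of human neuroblastoma, placed in the adrenal gland of NSG mice, which lack T, B and natural killer cells. The BL-8040 group was 3 mice given 400 µg of the drug under the skin on each of 14 consecutive days, starting 7 days after cell injection. The control group was 3 mice with the same cells, strain and site; what these mice were given is not stated in the sources used here, and their records carry the treatment text as well. The records used here state neither age nor sex of the mice, all 6 tumours come from 1 cell line, and the host strain cannot mount a lymphocyte response to the tumour.

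Polyamines are small positively charged amines that bind RNA and DNA and are needed for growth. Putrescine is made from ornithine, then lengthened to spermidine and spermine with aminopropyl groups from decarboxylated S-adenosylmethionine, and the path back runs through acetylation and oxidation. ODC1 is a classic target gene of MYC and MYCN, and inhibition of its enzyme has been studied as a therapy in neuroblastoma. Much of the control of ornithine decarboxylase, S-adenosylmethionine decarboxylase, antizyme and the acetyltransferase acts on translation and protein stability, which an array of transcripts does not read.

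The arrays carried human probe sets, with an array median between 5.35 and 5.42 on the log2 scale. Each array is taken here and below as 1 tumour of 1 mouse. The design text names 3 mice per group, but the labels do not tie each array to a separate animal. BL-8040 replicate 3 stood apart from the other arrays: on the first principal component, which held 37.2% of the variance, it lay at -22.7 and the others between -0.74 and 10.1. Differences below are BL-8040 minus control in log2 units, with the moderated standard error (SE) and 95% interval of limma, and adjusted p-values are Benjamini-Hochberg values over all 18417 genes. Adrenergic markers of neuroblastoma were present (8 of 9 listed genes measured; PHOX2A, HAND2, GATA3, ISL1, TH, DBH, ELAVL4 and CHGA), with a mean log2 value between 7.57 and 8.25 in the treated arrays and between 8.09 and 8.43 in the controls. All 8 stood lower in the treated group, beside 58.5% of all genes, and the lowest mean, 7.57, was that of BL-8040 replicate 3. The hosts are mice and the probe sets human, so values of the marker lists that follow cannot be assigned to host cells. Adrenal cortex markers (8 of 9 measured) had mean log2 values between 4.12 and 4.24 over the treated and between 4.13 and 4.16 over the control arrays. Endothelial markers (7 of 7) had 4.28 to 4.45 and 4.37 to 4.44, red cell markers (3 of 5) 4.19 to 4.41 and 4.30 to 4.36, myeloid markers (7 of 7) 4.95 to 5.14 and 4.93 to 5.04, and fibroblast markers (7 of 7) 8.35 to 8.71 and 8.40 to 8.50, in the same order. Higher in the treated group were 6 of 8 adrenal cortex, 2 of 7 endothelial, 2 of 3 red cell, 5 of 7 myeloid and 5 of 7 fibroblast markers. In tumour RNA, fewer cells of a type and less RNA per cell cannot be told apart, and the part of these markers in the results below was not tested.

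No polyamine gene passed the test. In limma, 0 of the 10 genes had an adjusted p under 0.05, as did 0 of all 18417 genes (0%). With BL-8040 the mean of 5 members stood higher and that of 5 lower, beside 41.5% of all genes higher and 58.5% lower. The median difference of the members was 0.0088, and that over all genes was -0.02. The median size of the difference, regardless of sign, was 0.05 over the members and 0.08 over all genes. At an unadjusted limma p under 0.05 stood 1 member, AMD1, which was higher, where 7.72% of all genes reached this p and 2.64% did so with a higher value. The treated and control values did not overlap in 2 of the 10, AMD1 and PAOX, beside 14.0% of all genes. AMD1 was the 1 member wholly higher (4.93% of all genes) and PAOX the 1 wholly lower (9.05%). With 10 members, counts of 1 and 2 lie close to these background shares.

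**Figure D1:**
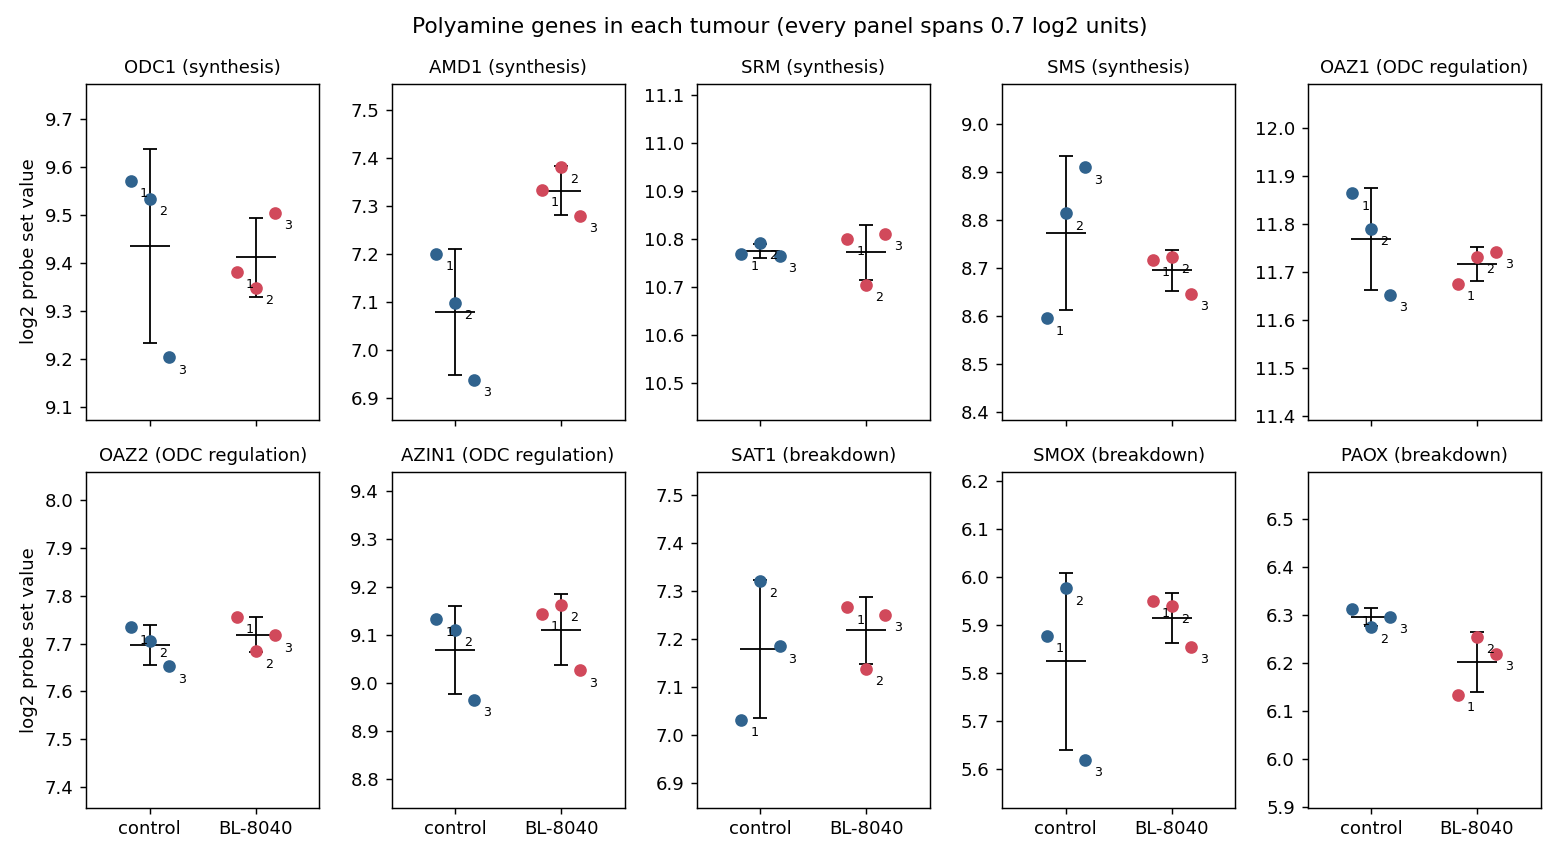
Log2 probe set value of each polyamine gene (y axis) in the 3 control and 3 BL-8040 tumours (x axis); points are arrays with their replicate number, the horizontal mark is the group mean and the bar its SD. The groups are apart for AMD1, with treated values between 7.28 and 7.38 above controls between 6.94 and 7.20, and for PAOX, where the treated values are the lower ones; in the other genes they overlap.

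Of the synthesis enzymes, ODC1, the ornithine decarboxylase that makes putrescine and catalyses the first step, was measured at 9.38, 9.35 and 9.50 with BL-8040 against 9.57, 9.53 and 9.20 in control tumours (here and below, values are in the order of the replicate numbers). The treated values lay between the controls, with control replicate 1 highest and control replicate 3 lowest. The group means were 9.41 ± 0.08 and 9.44 ± 0.20 (log2, SD, n = 3 each). The difference was -0.02 ± 0.11 (SE), with a 95% interval from -0.27 to 0.22 and a limma adjusted p of 0.956. The interval runs in fold terms from 0.832 to 1.16 times the control level. The sign of the small ODC1 difference turned with single arrays: it was -0.14 without control replicate 3 and 0.04 without control replicate 1.

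AMD1 encodes S-adenosylmethionine decarboxylase, which supplies the aminopropyl groups for spermidine and spermine. AMD1 was 7.33, 7.38 and 7.28 with BL-8040 against 7.20, 7.10 and 6.94 in control tumours. Every treated value lay above every control, and control replicate 3 was the lowest of the 6 arrays. The means were 7.33 ± 0.05 and 7.08 ± 0.13 (log2, SD, n = 3 each), a 1.19-fold level. The AMD1 difference was 0.25 ± 0.08 (SE), with a 95% interval from 0.06 to 0.45. Its limma p was 0.0155 unadjusted and 0.644 adjusted. Ranked by p, AMD1 was number 397 of the 18417 genes, and an exact permutation test over the arrays gave 0.1, its lower limit with 3 per group. BL-8040 replicate 3, the array that stood apart, held the lowest of the treated AMD1 values, and without it the difference was 0.28. Without control replicate 3 it was 0.18 (limma unadjusted p = 0.0554), and without BL-8040 replicate 2 it was 0.23 (limma unadjusted p = 0.0519).

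The aminopropyltransferases use what AMD1 makes. SRM, the spermidine synthase gene, was 10.80, 10.70 and 10.81 with BL-8040 against 10.77, 10.79 and 10.77 in control tumours. The 6 SRM values lay within 0.11 log2 units, and the controls fell inside the range of the treated arrays. The SRM difference was -0.0037 ± 0.07 (SE), with a 95% interval from -0.16 to 0.15 and a limma adjusted p of 0.990. The sign of the SRM difference turned to 0.03 after quantile normalization and 0.02 after median centring. SMS, the spermine synthase gene, was 8.72, 8.72 and 8.65 with BL-8040 against 8.60, 8.81 and 8.91 in control tumours. The treated SMS values lay inside the wider range of the controls. SMS was also the only member whose highest value was that of control replicate 3. The SMS difference was -0.08 ± 0.09 (SE), with a 95% interval from -0.28 to 0.13 and a limma adjusted p of 0.828. It ranged from -0.17 without control replicate 1 to -0.0090 without control replicate 3.

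The antizymes bind ornithine decarboxylase and deliver it to the proteasome; their full-length proteins need a ribosomal frameshift that polyamines favour. OAZ1, the main antizyme gene, was 11.68, 11.73 and 11.74 with BL-8040 against 11.86, 11.79 and 11.65 in control tumours. As for ODC1, control replicate 1 held the highest and control replicate 3 the lowest OAZ1 value, with the treated arrays between. The OAZ1 difference was -0.05 ± 0.08 (SE), with a 95% interval from -0.23 to 0.12 and a limma adjusted p of 0.867. It ranged from -0.11 without control replicate 3 to -0.0049 without control replicate 1. OAZ2, a second antizyme, was 7.76, 7.68 and 7.72 with BL-8040 against 7.73, 7.71 and 7.65 in control tumours. The 6 OAZ2 values spanned 0.10 log2 units and the groups overlapped. The OAZ2 difference was 0.02 ± 0.07 (SE), with a 95% interval from -0.13 to 0.18.

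AZIN1, the antizyme inhibitor, resembles ornithine decarboxylase in sequence but lacks its activity, and frees the enzyme by binding antizyme. AZIN1 was 9.14, 9.16 and 9.03 with BL-8040 against 9.13, 9.11 and 8.96 in control tumours. Within each group replicate 3 was the lowest, and the groups overlapped. The AZIN1 difference was 0.04 ± 0.08 (SE), with a 95% interval from -0.14 to 0.22 and a limma adjusted p of 0.890. The 3 regulators of ornithine decarboxylase thus gave differences between -0.05 and 0.04.

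On the side of breakdown, SAT1 encodes the acetyltransferase that marks spermidine and spermine for oxidation or export. SAT1 was 7.27, 7.14 and 7.25 with BL-8040 against 7.03, 7.32 and 7.18 in control tumours. The controls held both the highest and the lowest SAT1 value, and the treated arrays lay between them. The SAT1 difference was 0.04 ± 0.09 (SE), with a 95% interval from -0.16 to 0.24 and a limma adjusted p of 0.916. Without control replicate 1 it was -0.03.

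SMOX, the oxidase that turns spermine back into spermidine and releases hydrogen peroxide, was 5.95, 5.94 and 5.86 with BL-8040 against 5.88, 5.98 and 5.62 in control tumours. Control replicate 3 lay below the other 5 SMOX values, and the other controls overlapped with the treated arrays. The SMOX difference was 0.09 ± 0.10 (SE), with a 95% interval from -0.13 to 0.31 and a limma adjusted p of 0.812. Without control replicate 3 it was -0.01.

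PAOX, the peroxisomal oxidase that acts on acetylated polyamines, was 6.13, 6.26 and 6.22 with BL-8040 against 6.31, 6.28 and 6.30 in control tumours. Every treated value lay below every control, with 0.02 log2 units between the nearest 2 arrays. The PAOX means were 6.20 ± 0.06 and 6.30 ± 0.02 (log2, SD, n = 3 each), 0.938 times the control level. The difference was -0.09 ± 0.07 (SE), with a 95% interval from -0.25 to 0.06 and a limma adjusted p of 0.733. The exact permutation p was again at its limit of 0.1. The PAOX difference was -0.12 without BL-8040 replicate 2. It shrank to -0.06 when BL-8040 replicate 1 was left out.

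**Figure D2:**
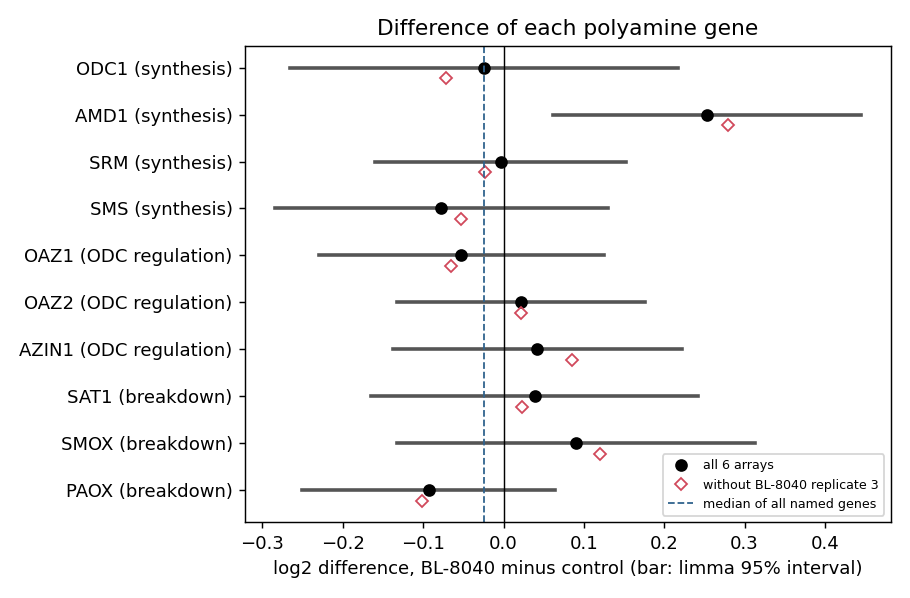
Log2 difference BL-8040 minus control (x axis) of each polyamine gene (y axis), with the limma 95% interval as a bar; open diamonds leave out BL-8040 replicate 3 and the dashed line is the median of all named genes, -0.02. The interval of AMD1, from 0.06 to 0.45, lies above 0, and the intervals of the other genes include 0.

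The width of these intervals bounds what 3 arrays per group could show. Over the members the 95% interval reached a median of 0.19 log2 units to each side of the difference, beside 0.20 over all genes. The lowest bound of any member was -0.28 (SMS) and the highest 0.45 (AMD1), so that for each member a difference of 1 log2 unit lay outside its interval.

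Set out by tumour, the members varied more among the controls than among the treated tumours. The SD of the controls exceeded that of the treated arrays in 8 of 10 members and in 48.8% of all genes, and the median SD was 0.12 in controls and 0.06 after BL-8040. SRM and PAOX were the members with the larger SD after BL-8040. Control replicate 3 was the lowest of the 6 arrays in 6 of the 10 members, namely ODC1, AMD1, OAZ1, OAZ2, AZIN1 and SMOX, where it was the lowest in 17.5% of all genes. BL-8040 replicate 3 was the lowest in 0 members and in 30.5% of all genes. These counts describe the arrays and carry no test.

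The median deviation of the members from their own 6-array means was 0.04, -0.01 and 0.0043 with BL-8040 against 0.02, 0.04 and -0.07 in control tumours. The lowest was that of control replicate 3, whose median over all genes was 0.01. By role, the mean deviation in control replicate 3 was -0.08 for the 4 synthesis enzymes, -0.09 for the 3 regulators and -0.07 for the 3 breakdown genes. Without control replicate 3 the members counted 2 higher (AMD1 and SAT1) and 8 lower, with a median difference of -0.0097. Synthesis minus breakdown, as the difference of these means, was 0.01, 0.0003 and 0.02 with BL-8040 against 0.03, -0.06 and -0.0078 in control tumours. The treated values lay inside the range of the controls.

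**Figure D3:**
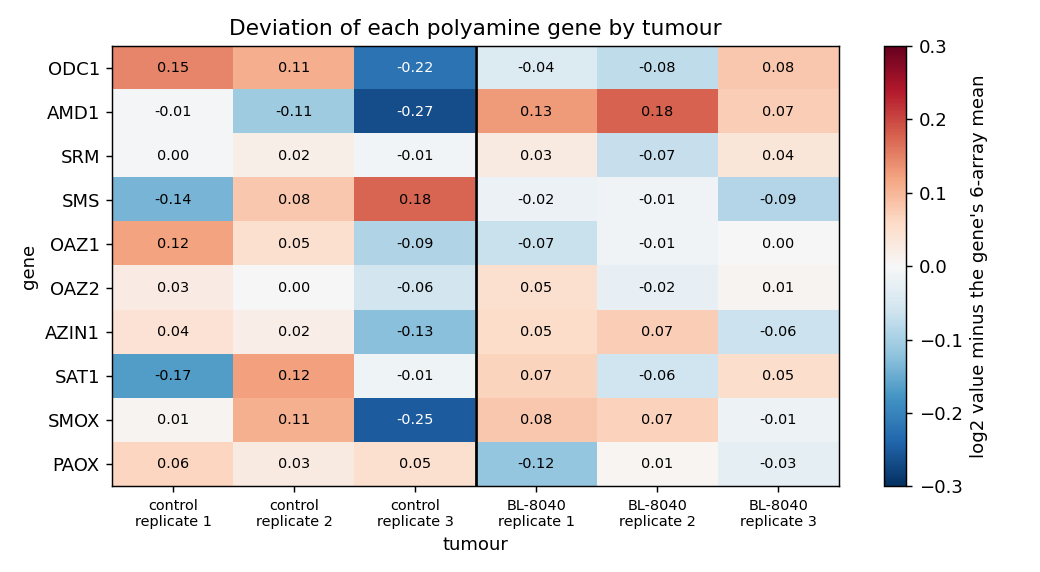
Deviation of each polyamine gene (rows) from its own 6-array mean in each tumour (columns), in log2 units; red is above and blue below the mean. Control replicate 3 is at -0.22 for ODC1, -0.27 for AMD1 and -0.25 for SMOX, and at 0.18 for SMS.

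MYCN, the amplified transcription factor gene of this line, was 12.26, 12.34 and 12.10 with BL-8040 against 12.22, 12.17 and 12.22 in control tumours. The treated values spanned the controls, and the lowest was BL-8040 replicate 3. The MYCN difference was 0.03 ± 0.08 (SE), with a 95% interval from -0.15 to 0.22 and a limma adjusted p of 0.927. The MYCN array with the highest value, BL-8040 replicate 2, held the lowest treated value of ODC1 and the highest treated value of AMD1. This describes that array and carries no test. MAX, the partner with which MYC proteins bind DNA, was 7.55, 7.57 and 7.56 with BL-8040 against 7.61, 7.67 and 7.63 in control tumours. The MAX groups did not overlap, where 9.05% of all genes were wholly lower with BL-8040. The MAX difference was -0.08, with a 95% interval from -0.22 to 0.07 and a limma adjusted p of 0.759.

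Beyond the 10 members, 44 of 45 listed genes of neighbouring steps were measured, and the list was drawn up with the members. Of these, 0 passed at an adjusted p under 0.05 in limma, 19 stood higher and 25 lower, and the median difference was -0.01. At an unadjusted p under 0.05 stood 1 gene, DHPS, which was lower (5.08% of all genes were lower at this p). DHPS encodes deoxyhypusine synthase, which uses spermidine to modify the translation factor eIF5A. It was 8.80, 8.70 and 8.54 with BL-8040 against 8.94, 8.98 and 8.84 in control tumours. Every treated DHPS value lay below every control, and BL-8040 replicate 3 was the lowest. DHPS and MAX were the 2 of the 44 listed genes that were wholly lower, beside 9.05% of all genes. Wholly higher were 0 listed genes, beside 4.93% of all genes. The DHPS difference was -0.24 ± 0.09 (SE), 0.846 times the control level, with a limma adjusted p of 0.644. Leaving out BL-8040 replicate 3 made it -0.17. DOHH, the hydroxylase that completes the hypusine residue, differed by -0.0082 and the eIF5A paralog EIF5A2 by -0.04; both were added to the description after their values were seen.

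Arginine and ornithine supply (7 genes measured) split into 4 higher and 3 lower. ARG2, the mitochondrial arginase that can feed ornithine to ODC1, was 6.81, 6.79 and 6.47 with BL-8040 against 6.76, 7.20 and 6.80 in control tumours. Its groups overlapped, with the highest value in control replicate 2 and the lowest in BL-8040 replicate 3. The ARG2 difference was -0.23 ± 0.14 (SE; limma adjusted p = 0.676). Leaving out BL-8040 replicate 3 made it -0.12 and leaving out control replicate 2 made it -0.095, while it was -0.31 without control replicate 1. OTC, the urea cycle enzyme that consumes ornithine, differed by 0.11 ± 0.09 (SE) between means of 2.71 and 2.60, a signal at percentile 4.11 of all genes. It was 0.035 without control replicate 3 and 0.19 without control replicate 1. Methionine supply (1 of 5 genes higher), methylthioadenosine salvage (3 of 6), transport and uptake (4 of 8), the other paralogs and catabolic enzymes (4 of 8) and the regulators (3 of 7) gave median differences between -0.04 and 0.0064. ATP13A3, a transporter of the endolysosomal system linked to polyamine uptake, was 1.07-fold of the control level, with a difference of 0.10 ± 0.08 (SE) that lay between 0.062 and 0.15 with 1 array left out (without BL-8040 replicate 2 and without control replicate 1). ALDH1A1, an aldehyde dehydrogenase, differed by 0.20 ± 0.12 (SE), with a limma adjusted p of 0.683, between means of 3.43 and 3.23 at percentile 11.7 of all genes. It was 0.11 without BL-8040 replicate 3 or without control replicate 1, and 0.30 without control replicate 2.

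**Figure D4:**
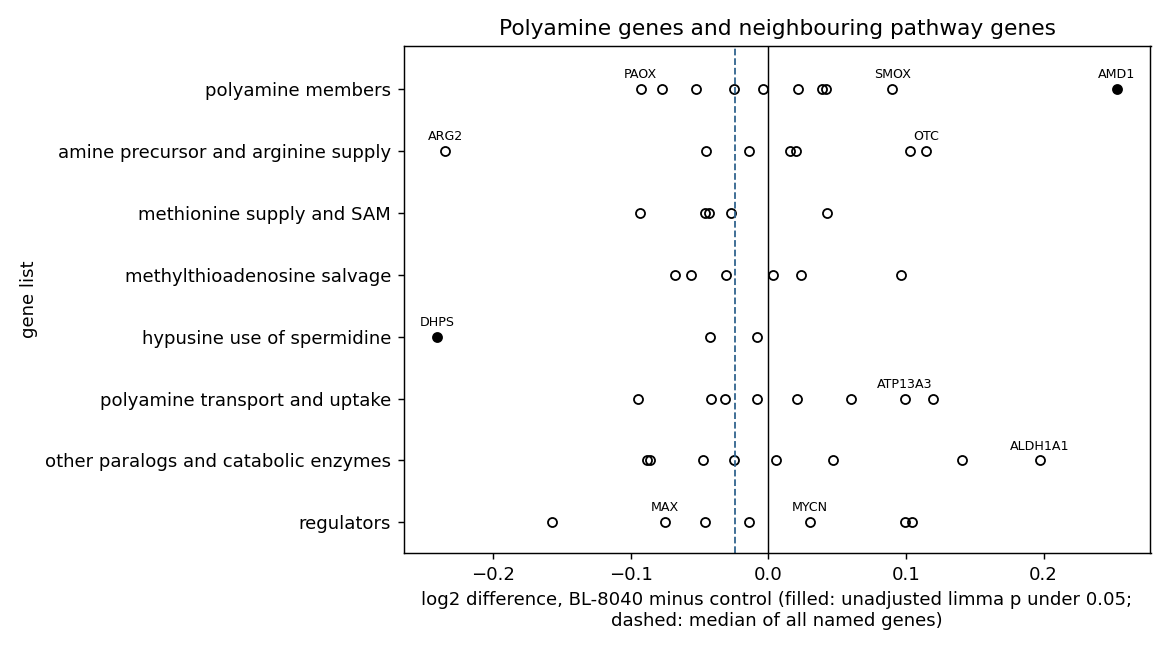
Log2 difference BL-8040 minus control (x axis) of the polyamine genes and of the listed genes of neighbouring steps (rows are lists, each point a gene); filled points have an unadjusted limma p under 0.05 and the dashed line is the median of all named genes, -0.02. AMD1 at 0.25 and DHPS at -0.24 are the filled points.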

How the data were processed

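RNA of 6 tumours (200 ng each) was labelled and read on Affymetrix Human Gene 1.0 ST arrays, per the labels' protocols; group and replicate came from the sample titles. The authors deposited log2 values per probe set, with the scale read from the values. Per the submitters' processing notes the software was Partek 6.6; how background, normalization and probe summaries were handled is not stated there or in the labels. Of 33297 probe sets, the platform annotation gave 1 symbol to 19460, several to 1754 and none to 12083; the brightest single-symbol probe set per gene was kept, without further normalization or filter. R 4.3.3 and limma 3.58.1 served for the two-sided comparison of the groups (lmFit, then eBayes); the replicate number was not a term of this fit. The test was checked on simulated data, where recovery was required only at the largest planted difference, which exceeds every difference reported here. The members and lists were chosen with earlier results of these data known. Named by rule were all members, MYCN, listed genes at an unadjusted p under 0.05 and the 3 with the smallest p in each direction. EIF5A shares its probe sets with another gene and was not used. With 3 arrays per group, their number limits the precision. The labels do not tie each array to a separate animal; the design text names 3 mice per group. Alternatives were quantile normalization, median centring, filters on dim genes, the mean of probe sets, a variance trend, array weights, a replicate block and leaving out each array.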

Additional observations from a re-analysis of the deposited data

How the results depend on the processing

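The count of members called was 0 under all 14 alternatives, as was that of all genes. The filters, the mean of probe sets, the variance trend and the replicate block leave the difference of a gene with 1 probe set unchanged. Under these the direction was fixed in advance and only the p-value could move. For AMD1, DHPS and PAOX, whose groups did not overlap, leaving out 1 array or weighting the arrays could not turn the sign either. For these genes only quantile normalization and median centring could have turned it, so the kept direction says little about robustness. AMD1 kept its direction under all 14, with an unadjusted limma p between 0.0073 and 0.0554 and an adjusted p between 0.465 and 0.896. DHPS kept its direction likewise, at an unadjusted p between 0.0096 and 0.0732. SMS, OAZ1 and PAOX kept their sign, but leaving out 1 array moved SMS between -0.17 and -0.0090, OAZ1 between -0.11 and -0.0049 and PAOX between -0.12 and -0.058; the other 6 members changed sign under at least 1 alternative. SRM turned to 0.026 with quantile normalization and to 0.018 with median centring. With 1 array left out the difference lay between -0.14 and 0.043 for ODC1, -0.023 and 0.030 for SRM, -0.035 and 0.11 for SAT1, -0.0012 and 0.039 for OAZ2, -0.010 and 0.085 for AZIN1, -0.012 and 0.17 for SMOX, and -0.024 and 0.099 for MYCN; members counted 2 to 7 higher, and listed neighbouring genes at an unadjusted p under 0.05 were 0 to 3. These counts were 0 without BL-8040 replicate 3 and without control replicate 1, and 3 without BL-8040 replicate 2. A filter at log2 6 or at the median signal left 9 members and dropped SMOX. The deviations of same-numbered arrays from their group means had correlations of -0.04, 0.02 and 0.08, and other pairs lay between -0.086 and 0.072. With 3 arrays per group these correlations depend on each other, so they cannot decide whether same-numbered samples share a batch. With the replicate block the limma adjusted p of AMD1 was 0.613, and 1488 genes rather than 1422 had an unadjusted p under 0.05.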
